A study of Mus musculus with 6 samples.

Results

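Keratins, claudins and desmosomal genes hold epithelial cells together, and their transcripts were followed in 4T1 cells, a mouse mammary carcinoma line, after treatment with P3FI-90, an inhibitor of the histone demethylase KDM3B. The genes were chosen by name alone from the deposited table of read counts, as every row whose symbol is that of a keratin, a claudin, a desmoglein, a desmocollin, a plakophilin, a zonula occludens scaffold (Tjp), or Dsp, Jup, Ppl, Evpl, Ocln, Marveld2, Marveld3 or F11r. This rule found 99 of the 22116 named genes, made up of 25 type II keratins, 28 type I keratins, 22 claudins, 17 desmosomal and plakin genes and 7 other tight junction genes. Both groups were 4T1 cultures for which the labels name no introduced allele, kept for 24 h either in 10 µM P3FI-90 or in its vehicle DMSO, and 3 mRNA libraries were sequenced per group. The labels name 1 cell line, 1 dose and 1 time, so nothing here separates dose or time from treatment. The study's methods say in general that experiments were repeated independently, but the labels do not say whether the 3 libraries of a group came from separate cultures, and p-values measure the spread between these libraries, which may be technical.

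Keratins are the intermediate filament proteins of epithelia. A type II keratin pairs with a type I keratin, and only the pair builds a filament, so each epithelium is known by the pairs it makes. KRT8 with KRT18, joined by KRT7 and KRT19, are the keratins of simple and luminal epithelium, KRT5 with KRT14 those of basal cells, and KRT6 with KRT16 and KRT17 those of injured or activated epidermis. Keratin filaments end at desmosomes, where desmogleins and desmocollins reach across to the next cell and plakoglobin (JUP), plakophilins and desmoplakin (DSP) tie them to the filaments. Claudins and occludin (OCLN) form the tight junctions that seal the space between cells, held by the TJP scaffolds to actin.

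The libraries held 31327094 to 37395732 counts on named genes, and 12288 genes had enough counts to be tested with edgeR. Of these, 79.3% passed an adjusted p under 0.05, 39.9% as higher and 39.4% as lower after P3FI-90, and in 81.2% the 3 libraries of one group did not overlap those of the other. Every count of genes below is to be read against these shares. All 13 epithelial markers were detected in every library, with a summed normalised count of 57453 to 58880 in DMSO and 44238 to 45197 in P3FI-90. Of these, 11 were lower and 1 higher after P3FI-90, so 84.6% were lower where 39.4% of all genes were. Scaling by total counts in place of TMM turned Grhl2, among the 11, to a log2 fold change of 0.052 that did not pass (edgeR adjusted p = 0.363). Under that scaling 3641 of the 12288 genes were lower, and the markers were not counted. Of 14 luminal markers 8 were tested. Krt7, Krt8, Krt18, Krt19 and Cd14 were lower, Foxa1 was higher, and Csn2, Kit, Pgr and Wfdc18 were at 0 in every library. Of 10 basal markers 7 were tested, with 2 higher and 3 lower. Of 12 leukocyte markers, 6 were at 0 in every library, Cd4, Cd8a, Adgre1, Ly6g and Nkg7 among them, and 3 were tested. Csf1r was higher after P3FI-90, from 41.5 ± 18.6 to 121 ± 13.2 normalised counts, while Cd68 and Ptprc did not pass. Of 8 endothelial markers, Cldn5, Erg and Vwf were at 0 in every library, and the 1 tested, Pecam1, was higher on few counts, from 4.42 ± 7.66 to 20.1 ± 5.72. Of 10 fibroblast markers 2 were tested. Pdgfra was lower, from 1355 ± 17.6 to 958 ± 56.5, and Col1a1 did not pass. The summed normalised count was 398 to 496 in DMSO and 406 to 516 in P3FI-90 for the leukocyte markers, and 0 to 13.3 and 21.6 to 35.3 for the endothelial markers. For the fibroblast markers it was 1411 to 1493 in DMSO and 1009 to 1096 in P3FI-90. The part of these transcripts in the results was not tested. In bulk RNA, fewer cells of a type and less RNA per cell cannot be told apart.

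Of the 99 genes, 42 were at 0 in all 6 libraries, a further 18 had at most 19 counts in any library and did not pass the filter, and 39 were tested. Among the 39, 13 were higher, 23 were lower and 3 did not pass the test, so 92.3% were called where 79.3% of all tested genes were. Lower calls made up 59.0% of the tested members against 39.4% of all genes, and higher calls 33.3% against 39.9%. The median log2 fold change was -0.34, against 0.01 over all genes tested. A log2 fold change under -1 with an adjusted p under 0.05 was found for 10 members, a class that held 10.6% of all genes, and one over 1 for 6 members, where the class held 12.7%. The 8 members Krt13, Krt17, Krt42, Krt87, Cldn2, Cldn6, Cldn9 and Dsg3 had fewer than 10 counts in some library. Without them, 10 of 31 were higher and 19 lower. Scaling by total counts in place of TMM raised every log2 fold change by about 0.21, which turned the split of calls among all genes from 50.3% higher to 62.9% higher and that among the members to 16 higher and 20 lower.

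**Figure D1:**
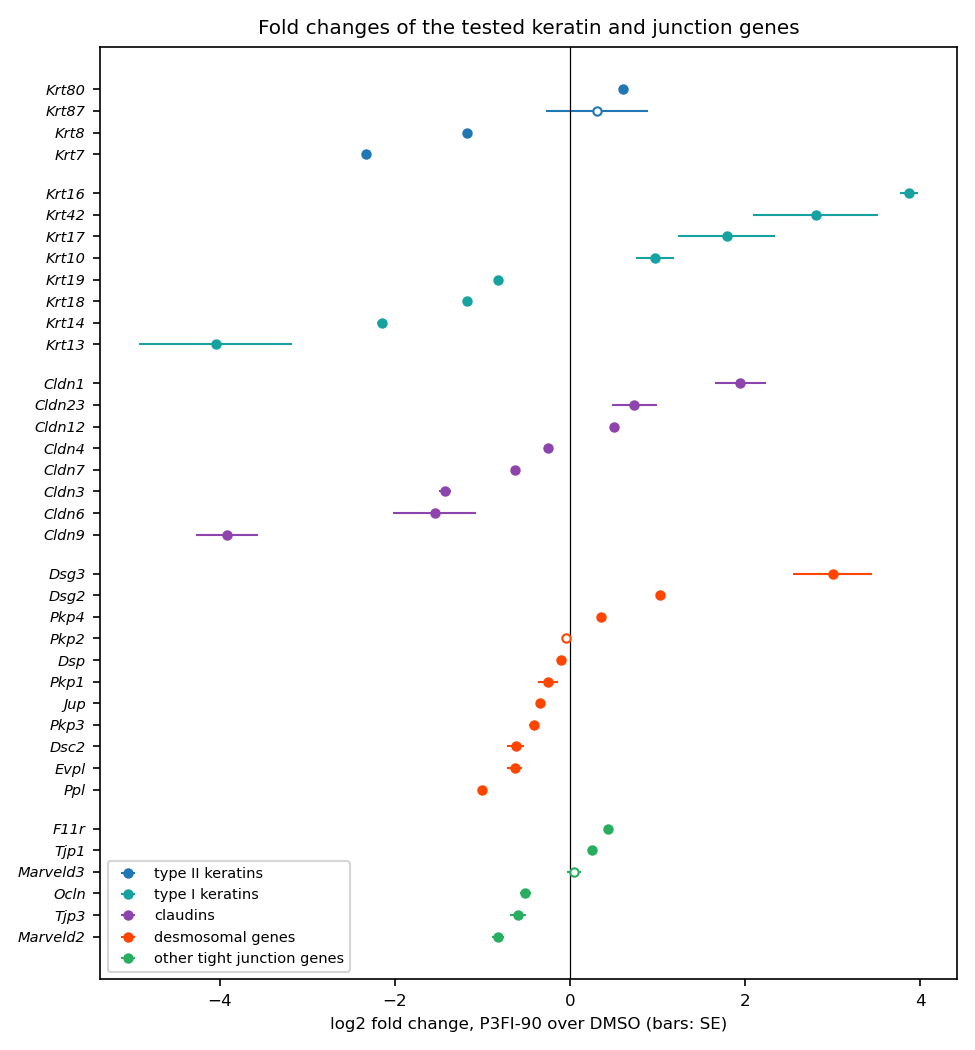
Log2 fold changes of tested members, P3FI-90 over DMSO, with bars of 1 SE from the edgeR fit and filled points for an adjusted p under 0.05; Cldn2, at 0 in all P3FI-90 libraries, is not drawn. Krt16 lies farthest to the right at 3.87, and among the abundant keratins Krt7 lies farthest to the left at -2.33.

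The simple epithelial keratins Krt8, Krt18, Krt7 and Krt19 had the highest normalised counts of all members in DMSO, and all of them fell. Krt8, the type II partner of this pair, had normalised counts of 37669, 36084 and 35377 in the DMSO libraries and 15924, 16519 and 15763 in the P3FI-90 libraries. Krt18, its type I partner and the one type I keratin gene that lies among the type II genes on chromosome 15, had 36701, 34465 and 34998 in the DMSO libraries and 15426, 16321 and 15067 in the P3FI-90 libraries. In both genes every P3FI-90 library lay far below every DMSO library, and the falls were of similar size. Krt8 fell 2.26-fold (log2 fold change -1.18, SE 0.032, edgeR adjusted p = 5.25e-13) and Krt18 2.27-fold (log2 fold change -1.18, SE 0.036, edgeR adjusted p = 1.40e-12). In the Krt8 transcripts 29.7% of the windows of 50 bases also occur in another gene, chiefly the pseudogene Krt8-ps, so some Krt8 reads could be placed on either. For this pair of neighbours, and for Krt14, the basal type I keratin that fell further, the genomic stretch before the start site is shown, since members that move together can be compared there. The sequences are from RefSeq on build GRCm38.p6, read 5′ to 3′ on the strand of the gene, while the submitters' processing notes name GRCm39 for the counts. They cover the 250 bases before the annotated start without bases that lie in an annotated exon, at chr15:102004483-102004592, minus strand, chr15:102027966-102028179, plus strand and chr11:100206031-100206280, minus strand, and capitals mark matches to the motifs named after them.
Krt8: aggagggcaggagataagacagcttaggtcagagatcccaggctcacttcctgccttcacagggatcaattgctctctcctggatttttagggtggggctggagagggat
Krt18: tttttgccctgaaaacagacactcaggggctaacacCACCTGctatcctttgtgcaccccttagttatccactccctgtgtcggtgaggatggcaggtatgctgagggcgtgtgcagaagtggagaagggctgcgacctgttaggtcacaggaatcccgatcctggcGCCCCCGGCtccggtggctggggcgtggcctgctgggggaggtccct
Krt14: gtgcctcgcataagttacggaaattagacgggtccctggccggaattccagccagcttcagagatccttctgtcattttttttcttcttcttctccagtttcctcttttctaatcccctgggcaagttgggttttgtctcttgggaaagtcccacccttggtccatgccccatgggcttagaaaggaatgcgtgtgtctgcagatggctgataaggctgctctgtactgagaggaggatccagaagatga
Both strands were searched for the core promoter box TATAAA and for the GC box with the letters GGGCGG. The AP-1 site was searched as TGANTCA, the AP-2 site was searched as GCCNNNGGC, and the E-box that Zeb and Snail factors bind was searched as CACCTG. The Krt18 stretch of 214 bases held 1 AP-2 match, which begins 83 bases before the start, and 1 E-box match, which begins 214 bases before it. Stretches of the same place and length held these in 11.4% and 15.2% of 32817 promoters. The Krt8 stretch of 110 bases and the Krt14 stretch of 250 bases held none of the 5 motifs. For Krt8 the 140 bases next to the start lie in an annotated exon and were not searched, nor were 36 bases for Krt18. A TATAAA box there would not have been seen. Each motif stood in 2.79% to 11.6% of promoters over the Krt8 stretch and in 6.75% to 32.7% over the Krt14 stretch, so most promoters lack any given one. The marked matches do not overlap each other.

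Krt7 fell most among the abundant keratins. This type II keratin of glandular epithelium had normalised counts of 45381, 42047 and 42525 in the DMSO libraries and 8719.9, 8802 and 8284 in the P3FI-90 libraries. Its mean fell 5.04-fold, from 43318 ± 1803 to 8602 ± 279 (SD, n = 3) (log2 fold change -2.33, SE 0.037, edgeR adjusted p = 3.65e-15). Krt19, the small type I keratin without a tail domain, had 11819, 10865 and 10687 in the DMSO libraries and 6232, 6481 and 6228 in the P3FI-90 libraries. The groups were again far apart, with a smaller fold of 1.76 (log2 fold change -0.82, SE 0.041, edgeR adjusted p = 2.39e-10). Krt14 had 4878, 4648 and 4604 in the DMSO libraries and 1003, 1091 and 1090.3 in the P3FI-90 libraries, a fall of 4.44-fold (log2 fold change -2.15, SE 0.051, edgeR adjusted p = 1.41e-13). Up to 13.9% of the windows of 50 bases along Krt14 transcripts also occur in another gene, chiefly Krt16, so some reads could be placed on either.

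**Figure D2:**
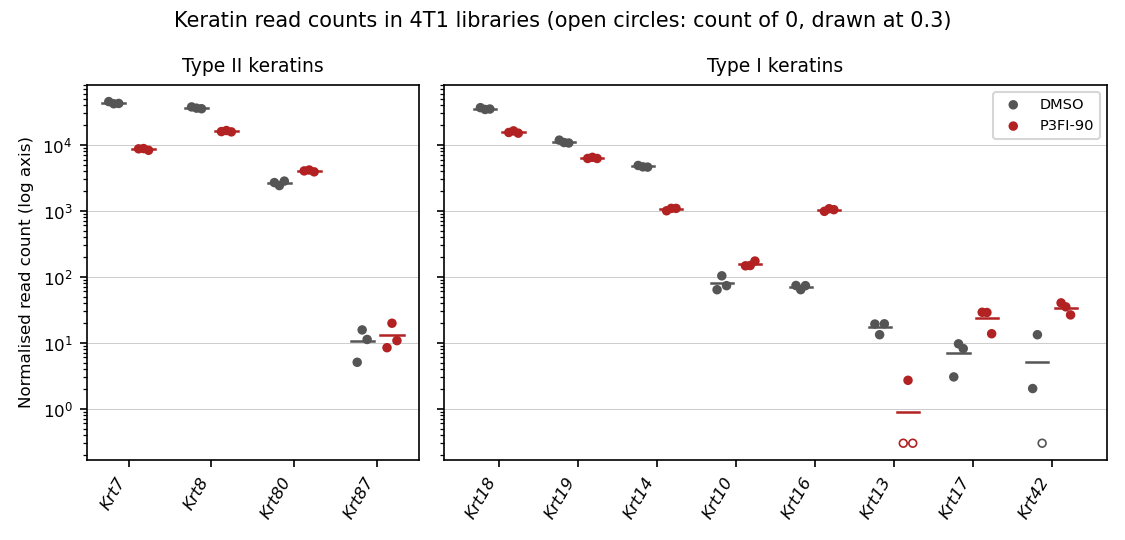
Normalised read count of each tested keratin on a log axis, 1 point per library (3 DMSO, 3 P3FI-90) and a line at the group mean; open circles are counts of 0. Krt8, Krt7, Krt18, Krt19 and Krt14 fell without overlap, while Krt16 lay between 63.8 and 73.9 in DMSO and between 983 and 1077 in P3FI-90.

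Taken within each library, the balance of Krt8 to Krt18 was similar in the groups and that of Krt7 to Krt19 was not. The ratio of Krt8 to Krt18, each as normalised counts per kilobase of exon, was 0.753, 0.768 and 0.742 in the DMSO libraries and 0.758, 0.743 and 0.768 in the P3FI-90 libraries. The groups overlapped, with means of 0.755 ± 0.0133 and 0.756 ± 0.0125 (SD, n = 3). The ratio of Krt7 to Krt19 was 1.01, 1.02 and 1.05 in the DMSO libraries and 0.368, 0.357 and 0.350 in the P3FI-90 libraries. Here the groups did not overlap, with means of 1.03 ± 0.0193 and 0.359 ± 0.00917, though 3 libraries against 3 cannot give an exact two-sided p below 0.1. These ratios do not depend on how the libraries were scaled, but their size rests on the gene lengths. Krt7 has 7049 bases of annotated exon, retained introns and a long last exon included, and a coding length of 1371 bases. Per coding length the Krt7 to Krt19 ratio was 3.44 ± 0.0647 in DMSO and 1.201 ± 0.0307 in P3FI-90, and the Krt8 to Krt18 ratio 0.887 ± 0.0157 and 0.889 ± 0.0147.

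The make-up of the type II keratins moved accordingly. Per kilobase of exon, Krt8 made up 73.9% ± 0.424 of the type II level in DMSO and 81.5% ± 0.253 in P3FI-90 (SD, n = 3), Krt7 24.4% ± 0.318 and 12.1% ± 0.217, and Krt80 1.65% ± 0.142 and 6.27% ± 0.0594. Per coding length Krt7 led in DMSO with 54.2% against 42.4% for Krt8, and Krt8 led in P3FI-90 with 54.1% against 31.05% for Krt7. Which of the pair led in DMSO therefore depends on the length used, while the direction of each share's move does not. The summed type I level fell from 33411 ± 1198 to 15642 ± 555 normalised counts per kilobase and the type II level from 25145 ± 839 to 10073 ± 254. Their ratio, type II over type I, fell from 0.753 ± 0.00646 to 0.644 ± 0.00733, and per coding length from 1.44 ± 0.0021 to 1.06 ± 0.0142.

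Against these falls, 5 keratins rose. Krt16, a type I keratin that healthy skin makes little of and injured epidermis makes in quantity, had raw counts of 73, 53 and 72 in the DMSO libraries and 1051, 1198 and 1064 in the P3FI-90 libraries. All P3FI-90 libraries lay more than 10 times above all DMSO libraries, and the normalised count rose 14.6-fold, from 70.4 ± 5.69 to 1034 ± 47.4 (SD, n = 3) (log2 fold change 3.87, SE 0.11, edgeR adjusted p = 4.95e-13). In the Krt16 transcripts, 37.6% of the windows of 50 bases also occur in another gene, most of them in Gm11597, which has no row in the table. Krt80, a type II keratin related to those of hair and found in many epithelia, had normalised counts of 2684, 2416 and 2828 in the DMSO libraries and 4036, 4167 and 3904 in the P3FI-90 libraries, a rise of 1.53-fold (log2 fold change 0.61, SE 0.055, edgeR adjusted p = 1.49e-07). Krt10, the type I keratin of differentiating epidermis, had 63.8, 104 and 73.5 in the DMSO libraries and 147, 148 and 173 in the P3FI-90 libraries, and its groups did not overlap (log2 fold change 0.97, SE 0.22, edgeR adjusted p = 9.87e-04).

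The other keratins that passed the test were near the lower limit of counting. Krt17, which basal and activated keratinocytes make, had raw counts of 3, 8 and 8 in the DMSO libraries and 31, 32 and 14 in the P3FI-90 libraries (log2 fold change 1.79, SE 0.56, edgeR adjusted p = 0.00938). Krt42, a type I keratin, had 2, 11 and 0 in the DMSO libraries and 43, 39 and 27 in the P3FI-90 libraries (log2 fold change 2.81, SE 0.71, edgeR adjusted p = 0.00241). The DMSO libraries of Krt42 were uneven. With 1 library left out its log2 fold change ran from 2.19 to 4.90, the highest without DMSO replicate 2, and by limma on log2(CPM + 1) it was 0.79. For Krt17 the same limma value was 0.48, and without DMSO replicate 1 its edgeR adjusted p was 0.0488. Krt13, the type I keratin of internal stratified epithelia, had 19, 11 and 19 in the DMSO libraries and 0, 3 and 0 in the P3FI-90 libraries, in all 49 counts in DMSO and 3, from 1 library, in P3FI-90. Scaled to library size, DMSO over P3FI-90 was 18.7, and the exact 95% interval for counting error ran from 6.03 to 93.7. Krt87, a hair-type type II keratin with 36.9% of its windows shared, had 5, 13 and 11 in the DMSO libraries and 9, 22 and 11 in the P3FI-90 libraries and did not pass (log2 fold change 0.31, SE 0.58, edgeR adjusted p = 0.630).

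Several partners that would complete the familiar pairs were missing. Krt5, the partner of Krt14, Krt6a and Krt6b, the partners of Krt16 and Krt17, Krt1, the partner of Krt10, and Krt4, the partner of Krt13, were at 0 in all 6 libraries, so no ratio could be formed for these pairs. In Krt6a and Krt6b, 57.2% and 50.1% of the windows of 50 bases also occur in another gene, chiefly each other, and whether reads that match both were counted is not given. In all, 19 of the 25 type II and 12 of the 28 type I keratins were at 0 throughout. A count of 0 bounds the level at this depth and does not show absence. Krt23 had 0, 11 and 2 in the DMSO libraries and 0, 0 and 0 in the P3FI-90 libraries, so its groups overlapped and 1 library held most of its counts. Krt222 had 6, 7 and 0 in the DMSO libraries and 0, 0 and 0 in the P3FI-90 libraries, with overlap too. By family, 1 of 4 tested type II keratins was higher and 2 lower, the median change being -0.43 on the log2 scale. The type II median was 0.45 with no filter, 0.55 without DMSO replicate 2, 0.36 without DMSO replicate 3 and -1.16 over the 3 with at least 10 counts in every library, so it gives no direction for the family. Of 8 tested type I keratins, 4 were higher and 4 lower, the median being 0.07. The type I median was -0.80 over the 5 type I keratins with at least 10 counts in every library, -0.14 with no filter and -0.03 by limma on log2(CPM + 1), so it too gives none.

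The claudins moved in both directions, and the falls included the second most abundant of them per kilobase. Cldn3, a sealing claudin of glandular epithelium, had normalised counts of 3537, 3028 and 3465 in the DMSO libraries and 1199.6, 1342 and 1187 in the P3FI-90 libraries. No library of one group reached the other, and the mean fell 2.69-fold (log2 fold change -1.43, SE 0.068, edgeR adjusted p = 1.39e-10). Cldn7, found along the lateral membrane as well as in tight junctions, had 2958, 2978 and 2992 in the DMSO libraries and 1921, 1963 and 1915 in the P3FI-90 libraries (log2 fold change -0.62, SE 0.045, edgeR adjusted p = 1.32e-08). Cldn4, the neighbour of Cldn3 on chromosome 5, had 5917, 5682 and 5699 in the DMSO libraries and 5020.1, 4816 and 4747 in the P3FI-90 libraries. Its fall was small, 1.19-fold (log2 fold change -0.25, SE 0.037, edgeR adjusted p = 2.47e-05), and when libraries were scaled by total counts it did not pass (log2 fold change -0.03, edgeR adjusted p = 0.430).

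Cldn12 and Cldn1 rose. Cldn12, a claudin without the usual PDZ-binding end, had normalised counts of 2980.2, 3006 and 3017 in the DMSO libraries and 4479, 4069 and 4170.2 in the P3FI-90 libraries, a rise of 1.41-fold (log2 fold change 0.50, SE 0.044, edgeR adjusted p = 1.23e-07). Cldn1, which seals the epidermis, was of low abundance, with raw counts of 17, 22 and 23 in the DMSO libraries and 85, 88 and 102 in the P3FI-90 libraries. Each P3FI-90 library held over 3 times the counts of any DMSO library (log2 fold change 1.95, SE 0.29, edgeR adjusted p = 2.70e-05). The stretches before the start of Cldn3, which fell, and Cldn1, which rose, are shown to set the claudins with opposite changes side by side, from RefSeq on GRCm38.p6 at chr5:134985964-134986213, plus strand and chr16:26371842-26372089, minus strand, with matches to the same 5 motifs in capitals.
Cldn3: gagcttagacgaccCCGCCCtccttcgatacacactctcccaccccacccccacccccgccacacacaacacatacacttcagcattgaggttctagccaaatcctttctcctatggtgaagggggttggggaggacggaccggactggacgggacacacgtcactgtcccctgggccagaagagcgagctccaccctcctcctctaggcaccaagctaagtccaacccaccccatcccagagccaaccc
Cldn1: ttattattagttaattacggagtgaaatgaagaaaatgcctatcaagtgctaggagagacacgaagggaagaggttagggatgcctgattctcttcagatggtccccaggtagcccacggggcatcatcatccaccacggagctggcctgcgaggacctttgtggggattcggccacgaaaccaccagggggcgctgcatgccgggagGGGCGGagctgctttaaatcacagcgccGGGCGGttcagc
The Cldn3 stretch of 250 bases held 1 GC box, on the opposite strand and beginning 236 bases before the start. The Cldn1 stretch of 248 bases held 2, beginning 42 and 14 bases before it. At least 1 GC box stood in 32.7% and 32.5% of all promoters over stretches of these lengths. The letters of the other 4 motifs were found in neither stretch.

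Claudins of low abundance changed by larger factors on few counts. Cldn2, which forms a cation pore in leaky epithelia, had raw counts of 28, 20 and 19 in the DMSO libraries and 0, 0 and 0 in the P3FI-90 libraries. Against a floor of 3 counts over the P3FI-90 group it was at least 25.6-fold lower, or at least 12.8-fold lower against a floor of 6, in case each read pair was counted by both of its mates. Cldn9 had 87, 99 and 122 in the DMSO libraries and 6, 6 and 11 in the P3FI-90 libraries (log2 fold change -3.92, SE 0.36, edgeR adjusted p = 1.47e-07). Cldn6, a claudin of embryonic epithelium and the neighbour of Cldn9 on chromosome 17, had 32, 30 and 17 in the DMSO libraries and 13, 9 and 9 in the P3FI-90 libraries (log2 fold change -1.54, SE 0.48, edgeR adjusted p = 0.00858). Both genes were below all DMSO libraries in all P3FI-90 libraries. By limma on log2(CPM + 1) the log2 fold change was -1.78 for Cldn9 and -0.50 for Cldn6. Cldn18, the claudin of stomach and lung, went the other way with 0, 0 and 0 in the DMSO libraries and 9, 19 and 18 in the P3FI-90 libraries, and its P3FI-90 level was at least 13.4-fold higher, or at least 6.701-fold higher against a floor of 6. It did not pass the filter and has no test. Cldn23 had 70, 54 and 43 in the DMSO libraries and 106, 91 and 121 in the P3FI-90 libraries (log2 fold change 0.74, SE 0.26, edgeR adjusted p = 0.0172), and its rise did not pass without DMSO replicate 3 (edgeR adjusted p = 0.0825) or without P3FI-90 replicate 3 (0.0829).

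Over the family, 3 of 9 tested claudins were higher and 6 lower, and the median change was -0.62 on the log2 scale. With Cldn2 at its bound this median is the same, but it was 0.14 over the 6 claudins with at least 10 counts in every library and 0.61 with no filter, so the family has no single direction. Its make-up shifted. Per kilobase of exon, Cldn3 fell from 32.3% ± 1.72 to 17.2% ± 1.16 of the claudin level, and Cldn12 rose from 8.66% ± 0.301 to 17.4% ± 0.711. Cldn4 went from 38.7% ± 0.766 to 46.5% ± 0.641 and led in both groups. Per coding length the same shares were 21.7% and 10.1% for Cldn3, 17.5% and 30.8% for Cldn12, and 39.1% and 41.1% for Cldn4.

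**Figure D3:**
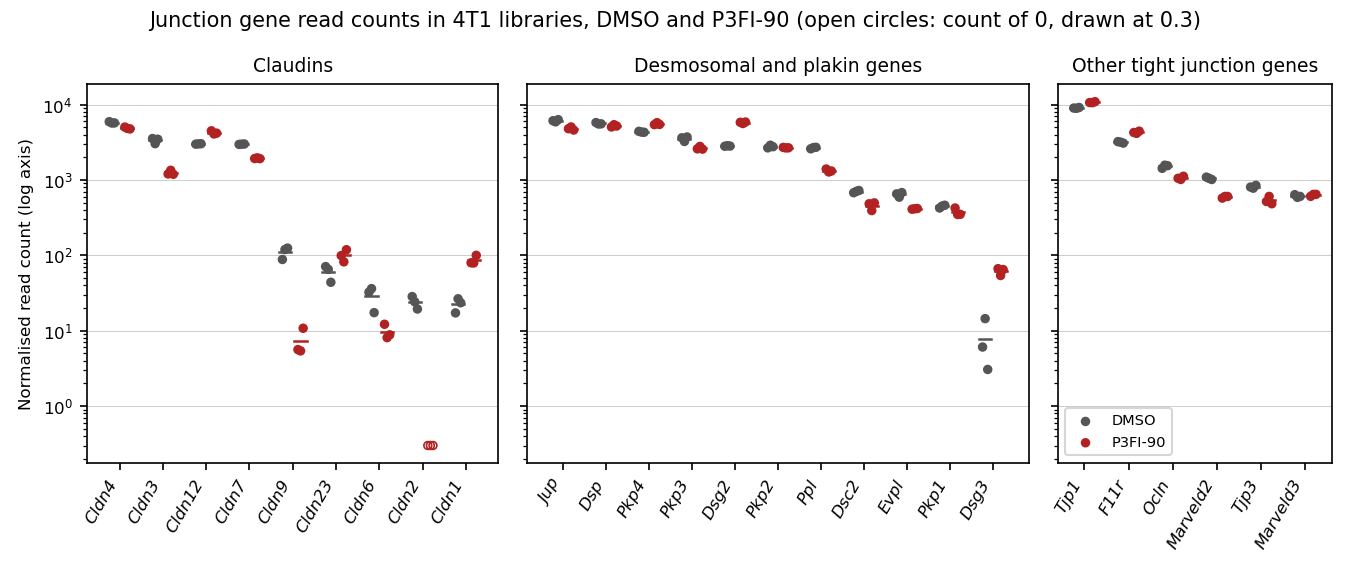
Normalised read counts of tested claudins, desmosomal and plakin genes and other tight junction genes on a log axis, 1 point per library and a line at the group mean; open circles are counts of 0. Cldn3 and Ppl fell and Dsg2 and Cldn12 rose with no overlap between the 3 DMSO and the 3 P3FI-90 libraries.

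The scaffolds beneath the tight junction parted. Tjp1 (ZO-1), which links claudins and occludin to actin, had normalised counts of 8973, 8912 and 9129 in the DMSO libraries and 10624, 10579 and 10900.1 in the P3FI-90 libraries (log2 fold change 0.25, SE 0.032, edgeR adjusted p = 5.29e-06). Every P3FI-90 library was above every DMSO library. Tjp3 (ZO-3), a relative, fell from 809 ± 35.4 to 535 ± 62.5 (SD, n = 3) (log2 fold change -0.60, SE 0.091).

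Among the membrane proteins of the tight junction other than claudins, Ocln had normalised counts of 1425, 1567 and 1544 in the DMSO libraries and 1051, 1014 and 1118 in the P3FI-90 libraries (log2 fold change -0.51, SE 0.062, edgeR adjusted p = 3.37e-06). Marveld2 (tricellulin), which closes the points where cells meet in threes, had 1089, 1049 and 1012 in the DMSO libraries and 574, 603 and 603 in the P3FI-90 libraries (log2 fold change -0.82, SE 0.069, edgeR adjusted p = 6.45e-08). Both were lower without overlap. F11r (JAM-A), an immunoglobulin-like adhesion protein, rose from 3154 ± 71.4 to 4278 ± 145 (SD, n = 3) (log2 fold change 0.44, SE 0.042, edgeR adjusted p = 2.39e-07). Marveld3 was 609 ± 25.4 and 630.3 ± 21.6 and did not pass (log2 fold change 0.05, SE 0.079, edgeR adjusted p = 0.579), though scaling by total counts gave 0.26 and an edgeR adjusted p of 0.00708. In all, 2 of these 7 genes were higher and 4 lower, and their median change was -0.51 on the log2 scale.

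The desmosomal cadherins also changed against each other. Dsg2, the desmoglein of simple epithelium, had normalised counts of 2796, 2842 and 2811 in the DMSO libraries and 5806, 5596 and 5856 in the P3FI-90 libraries, a rise of 2.04-fold (log2 fold change 1.03, SE 0.037, edgeR adjusted p = 6.76e-12). Dsc2, the desmocollin that accompanies it, had 676, 705 and 724 in the DMSO libraries and 483, 392 and 496 in the P3FI-90 libraries (log2 fold change -0.62, SE 0.098, edgeR adjusted p = 4.65e-05). Every P3FI-90 library was above every DMSO library for Dsg2 and below for Dsc2. Dsg3, the desmoglein of stratified epithelium, had raw counts of 6, 12 and 3 in the DMSO libraries and 71, 60 and 66 in the P3FI-90 libraries (log2 fold change 3.000, SE 0.45, edgeR adjusted p = 2.98e-05). Its rise rests on a low DMSO level. On the log2 scale it ran from 2.60 to 3.71 with 1 library left out, the highest without DMSO replicate 2, and was 1.18 by limma on log2(CPM + 1). The P3FI-90 level of Dsg3 per kilobase of exon was 8.84 ± 0.968 normalised counts against 696 ± 16.7 for Dsg2. Per kilobase, Dsg2 went from 71.7% ± 0.587 to 87.9% ± 1.05 of the desmosomal cadherin level and Dsc2 from 27.96% ± 0.658 to 10.9% ± 0.983. Per coding length Dsg2 went from 76.1% to 89.98%.

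**Figure D4:**
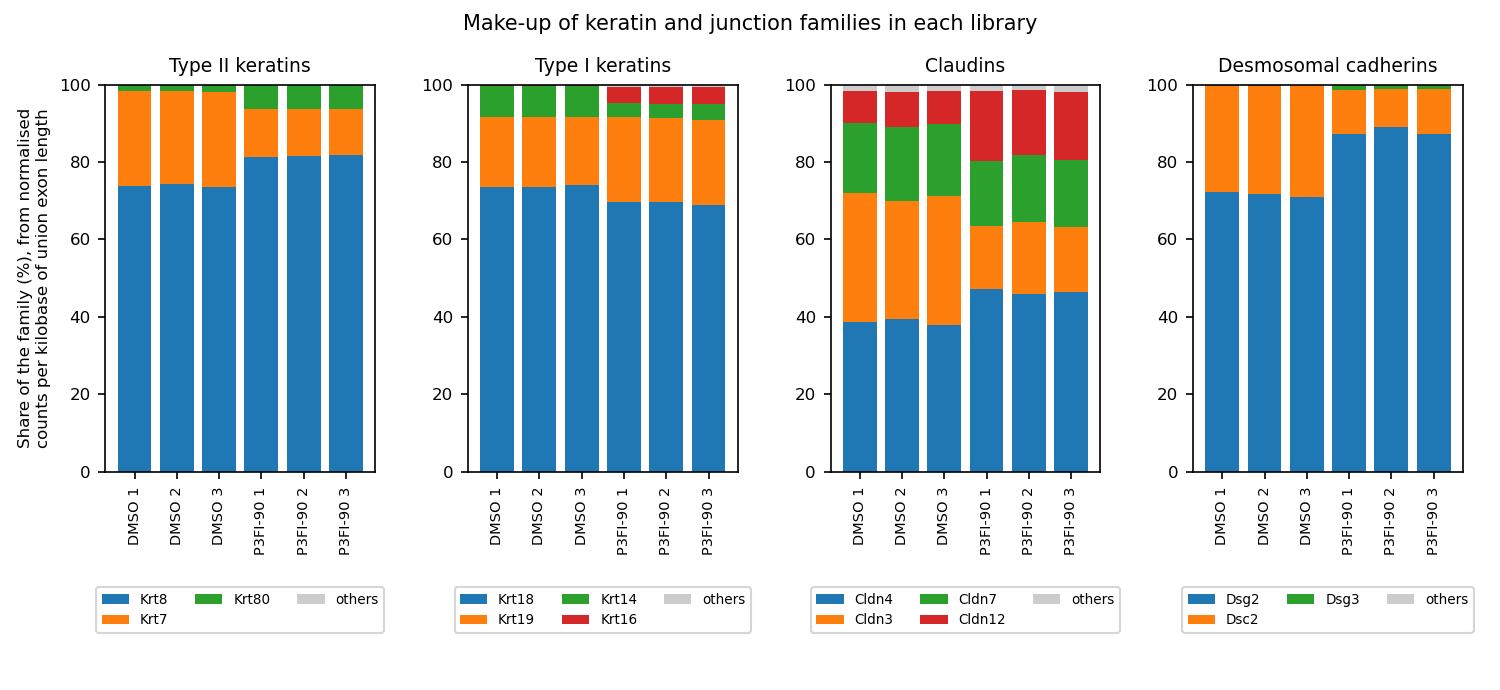
Share of each gene in the summed normalised counts per kilobase of union exon length of its family, 1 bar per library. In the P3FI-90 libraries Krt7, Cldn3 and Dsc2 take smaller shares and Krt80, Krt16, Cldn12 and Dsg2 larger ones than in the DMSO libraries; the height of the Krt7 share depends on the length used for Krt7.

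The plaque proteins changed less. Jup, the armadillo protein that binds the cadherin tails, had normalised counts of 6093, 5894 and 6299 in the DMSO libraries and 4779, 5037 and 4587 in the P3FI-90 libraries (log2 fold change -0.34, SE 0.042, edgeR adjusted p = 3.17e-06). Dsp, which anchors the keratin filaments, had 5759, 5515 and 5539.8 in the DMSO libraries and 5038, 5398 and 5188 in the P3FI-90 libraries. The groups did not overlap, but the fall of 1.08-fold (log2 fold change -0.11, SE 0.038, edgeR adjusted p = 0.0190) turned to a rise under total-count scaling (log2 fold change 0.11, edgeR adjusted p = 0.0169) and did not pass without DMSO replicate 1 (0.0810) or P3FI-90 replicate 1 (0.0974). No direction can be given for it.

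The plakophilins, which widen the plaque and bind desmoplakin, went separate ways. Pkp3 fell from 3521 ± 249.9 to 2642 ± 119.7 (SD, n = 3) (log2 fold change -0.42, SE 0.056, edgeR adjusted p = 1.00e-05), and Pkp4, a relative that also sits at adherens junctions, rose from 4334 ± 65.05 to 5533 ± 184 (SD, n = 3) (log2 fold change 0.35, SE 0.037, edgeR adjusted p = 6.59e-07). Both changes were without overlap between the groups. Pkp2 was 2768 ± 113 and 2674 ± 21.8 and did not pass (log2 fold change -0.05, SE 0.047, edgeR adjusted p = 0.344), with the opposite sign under total counts (0.16, edgeR adjusted p = 0.00528). Pkp1 passed narrowly (log2 fold change -0.25, SE 0.11, edgeR adjusted p = 0.0475) and did not in 10 of 15 alternatives. Per kilobase of exon, Pkp3 went from 41.6% ± 2.03 to 32.1% ± 0.622 of the plakophilin level and Pkp4 from 32.5% ± 0.857 to 42.6% ± 0.460.

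The plakins of the epidermal envelope both fell. Ppl (periplakin), which binds keratin 8 as well as the envelope, had normalised counts of 2587, 2682 and 2706 in the DMSO libraries and 1394, 1275 and 1313 in the P3FI-90 libraries, a fall of 2.003-fold (log2 fold change -1.002, SE 0.052, edgeR adjusted p = 3.32e-10). Evpl (envoplakin), its partner, had 653, 590.1 and 679 in the DMSO libraries and 409, 415 and 417 in the P3FI-90 libraries (log2 fold change -0.63, SE 0.089, edgeR adjusted p = 1.44e-05). No library overlapped in either gene. Of the 11 tested desmosomal and plakin genes, 3 were higher and 7 lower. The median change on the log2 scale was -0.25, or -0.04 under total counts, where 5 were higher and 5 lower. Dsc1, Dsc3 and Dsg1c had too few counts to test.

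The members were set beside other genes of the same structures, from lists written by hand. In the adherens junction, the actin-linked junction that lies below the tight junction, 9 of 16 tested genes were lower and 4 higher, the median change being -0.30 on the log2 scale. Under total counts this median was -0.08, with 4 higher and 7 lower. The cadherin-catenin core was among those that fell, with Cdh1 (E-cadherin) from 16309 ± 282 to 13103 ± 226 (log2 fold change -0.32, SE 0.031), Ctnnb1 (beta-catenin) from 34627 ± 343 to 28001 ± 596 (log2 fold change -0.31, SE 0.027) and Ctnna1 (alpha-catenin) from 17439.6 ± 398 to 14491 ± 237 (log2 fold change -0.27, SE 0.031), the last not past the test under total counts. Under total counts Cdh1 and Ctnnb1 were lower by less, at -0.10 and -0.09 on the log2 scale. The nectins and their relatives split. Nectin2 fell from 3242 ± 208 to 1307 ± 97.8 (log2 fold change -1.31, SE 0.065), while Pvr, the poliovirus receptor, rose from 1469 ± 11.9 to 5533 ± 59.3 (log2 fold change 1.91, SE 0.041).

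Genes that give the tight junction its polarity and scaffold were more often higher, 15 of 26 against 6 lower, the median change being 0.16 on the log2 scale. The split was 18 higher and 5 lower under total counts, with a median of 0.38. It was 12 and 6 under upper quartiles and 12 and 7 without DMSO replicate 2. Crb3, the apical Crumbs protein, rose from 356 ± 11.3 to 1604 ± 42.97 (log2 fold change 2.17, SE 0.067, edgeR adjusted p = 1.63e-12), and Jam3 rose from 1 counted library in DMSO, from 1.02 ± 1.77 to 42.3 ± 6.05 (log2 fold change 5.15, SE 0.72, but 8.41 without DMSO replicate 3, the library that held its DMSO counts, and 1.10 by limma on log2(CPM + 1)). Arhgef2, a guanine nucleotide exchange factor held at the junction, rose from 5702 ± 288 to 9868 ± 203 (log2 fold change 0.79, SE 0.04). Ybx3, the ZO-1-associated nucleic acid binding protein, fell from 16726 ± 594 to 9516 ± 306 (log2 fold change -0.81, SE 0.037). Amotl1, with a log2 fold change of -0.01, did not pass and had 0.20 under total counts.

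Of the 6 hemidesmosome genes, which tie keratin to the basement membrane, 2 were higher and 4 lower. Plec (plectin) fell from 8033 ± 424 to 3993 ± 149.8 (log2 fold change -1.01, SE 0.044) and Cd151, a tetraspanin partner of the integrin, from 4714 ± 61.9 to 2143 ± 169 (log2 fold change -1.14, SE 0.053), while Dst, whose epithelial form is a plakin, rose from 6594 ± 191 to 11646 ± 275 (log2 fold change 0.82, SE 0.035). The count of Dst does not tell its isoforms apart. Among other intermediate filament genes, 6 of 10 were lower and 2 higher, and under total counts 4 were lower and 2 higher. Vim (vimentin), the filament of mesenchymal cells, was more abundant in counts than any keratin and fell from 64656 ± 1113 to 20035 ± 469.8 (log2 fold change -1.69, SE 0.028, edgeR adjusted p = 4.93e-15). The lamins Lmna and Lmnb1 fell too (log2 fold change -1.44, SE 0.033, and log2 fold change -1.64, SE 0.038). The 2 higher genes, Synm and Bfsp1, were few in counts and passed neither with the replicate block nor without some single libraries (edgeR adjusted p up to 0.0962 for Synm and 0.152 for Bfsp1).

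In the list of cornified envelope and late epidermal genes, only 14 of 47 could be tested, with 5 higher and 7 lower. Aloxe3, a lipoxygenase of the skin barrier, rose from 34.8 ± 15.4 to 1238 ± 68.8 (log2 fold change 5.14, SE 0.17, edgeR adjusted p = 3.24e-12). Padi3, which citrullinates filament proteins, fell from 786 ± 47.3 to 29.8 ± 7.74 (log2 fold change -4.71, SE 0.16, edgeR adjusted p = 3.04e-12). Plet1 fell from 2735 ± 76.6 to 1033 ± 52.1 (log2 fold change -1.40, SE 0.054), and Sprr1a, an envelope precursor, rose on few counts from 2.69 ± 3.06 to 34.6 ± 22.98 (log2 fold change 3.71, SE 0.83). For Sprr1a the log2 fold change was 3.11 without DMSO replicate 1, 4.93 without DMSO replicate 2 and 0.83 by limma on log2(CPM + 1). The list thus held large changes of both signs, as the type I keratins did.

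**Figure D5:**
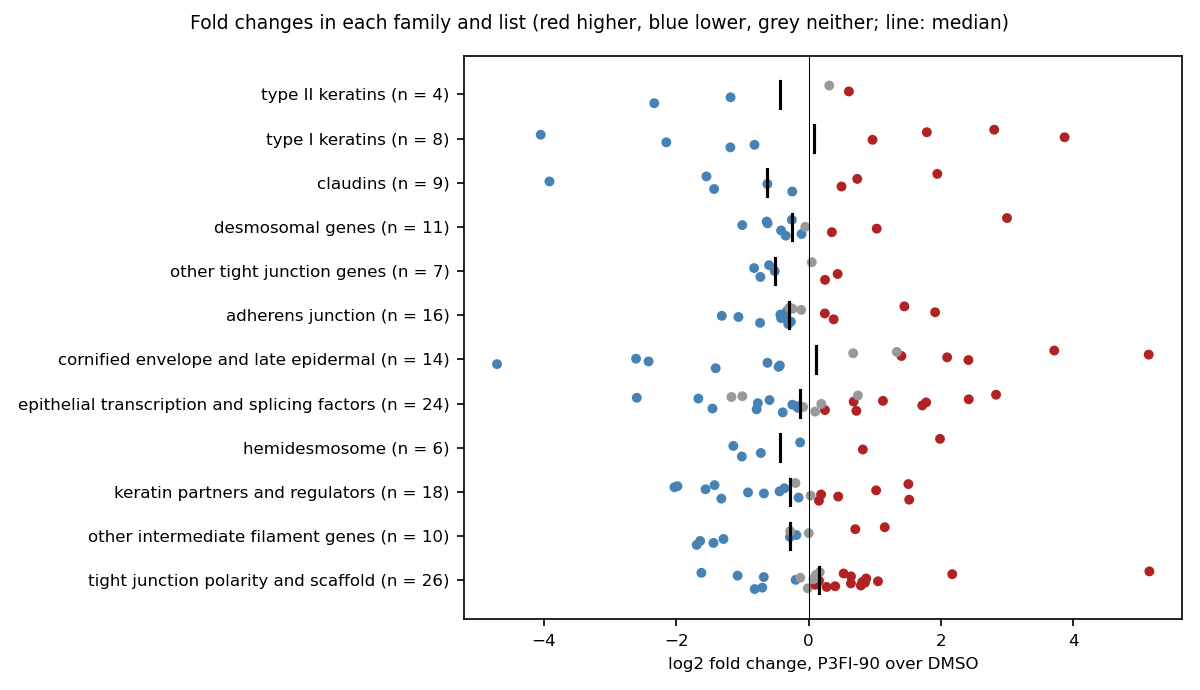
Log2 fold change, P3FI-90 over DMSO, of every tested gene in each member family and in 7 further lists, with red for higher, blue for lower and grey for neither, and a black line at the median; Cldn2 is not drawn. The medians lie between -0.62 for the claudins and 0.16 for tight junction polarity and scaffold genes, and each row holds genes on both sides of 0.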

How the data were processed

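RNA was sequenced from 3 DMSO and 3 P3FI-90 libraries of 4T1 cells. Per the labels, total RNA was extracted with TRIzol and libraries were made with an Illumina mRNA-Seq kit and run on a NovaSeq. The authors deposited read counts per gene as whole numbers without normalization. The submitters' processing notes name CASAVA, HISAT2, StringTie and GRCm39. The annotation, the counting tool and the strandedness are not given in the sources used here, so reads of a gene and of an antisense partner cannot be told apart. Of 22401 rows, 285 hold assembled transcripts without a gene name (0.483% to 0.556% of the counts per library) and were left out. No column lacked a sample.

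Genes were filtered with filterByExpr, scaled by TMM (factors 0.927 to 0.930 for DMSO and 1.08 for P3FI-90) and compared with edgeR 4.0.16 in R 4.3.3, by the quasi-likelihood test with Benjamini-Hochberg adjustment over all 12288 genes tested. The authors used limma. Here it is an alternative, since raw counts call for a count test. Normalised counts were brought to the mean of the effective library sizes. Levels per kilobase use the union of exons in GENCODE M21. For a gene at 0 in a group, fold bounds use a floor of 3 counts for the whole group. Genes with a count of 2 outnumbered those with 1 in each library (311 against 81 in DMSO replicate 1), so both mates of a pair may have been counted, and some bounds are also given with 6. Intervals and floors cover counting error only.

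The members, families and lists were chosen with earlier results of these data known. Named genes were, in each family, up to 6 of highest mean, up to 5 rises and 5 falls of largest fold change among called members with a mean of at least 10 normalised counts in a group, members at 0 in 1 group, and keratin partners, and in each other list up to 3 of highest mean and up to 3 of largest change. Other genes named, such as Cdh1, Cldn18, Krt23, Krt222 and Pkp1, lie outside it and were chosen after their values were seen. Alternatives were DESeq2 size factors, total counts and upper quartiles, no filter or a minimum of 10 counts in all libraries, the tests of DESeq2 1.42.0 and limma 3.58.1 as voom or on log2(CPM + 1), the replicate number as a block, each library left out, raw ratios for keratin pairs and, added after the data were seen, coding lengths. On simulated counts with 200 changed genes, of which 194 passed the filter, the edgeR test recovered 169 and 7.14% of its calls were false, above the threshold of 0.05. The simulation changed 200 of 12288 genes and drew counts from the fitted dispersions, while 79.3% of genes were called in the data. It therefore cannot show how the test or the scaling behaves when most genes change. Promoter sequences were matched by symbol for 62 members, 22 of them tested. Values of some single genes that are part of the counts are not reported here.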

Additional observations from a re-analysis of the deposited data

How the results depend on the processing

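Of 577 alternative values of single members, 558 kept their side of the threshold, and their direction wherever either value passed. Krt87, which did not pass, is among them although its log2 fold change went from 0.31 to -0.13 without P3FI-90 replicate 2. Under total counts the log2 fold changes of Dsp (0.11), Pkp2 (0.16), Amotl1 (0.20) and Grhl2 (0.052) turned positive. Higher type I keratins numbered 2 with at least 10 counts in every library (4 otherwise), lower claudins 3 (6) because fewer genes were tested, higher claudins 5 with no filter and 2 to 5 when 1 library was left out (5 without DMSO replicate 1 and without DMSO replicate 2), and higher desmosomal genes 5 under total counts (3). The keratin pair ratios moved with length: raw counts gave Krt8/Krt18 1.03 in DMSO and 1.03 in P3FI-90 and Krt7/Krt19 3.90 and 1.36, and coding lengths gave 0.887, 0.889, 3.44 and 1.201. With libraries left out, 12 to 15 members were higher and 21 or 22 lower. With the replicate block 13 members were higher and 22 lower, as Pkp1 did not pass (edgeR adjusted p = 0.0705), and over all genes 4802 were higher and 4722 lower. The deviations of equally numbered libraries correlated at -0.021, 0.015 and 0.0049, so no shared shift by number was seen. These values cannot show whether equally numbered libraries were cultured or prepared together, which the labels do not say. Low counts limit Krt13, Krt17, Krt42, Cldn2, Cldn6, Cldn9 and Dsg3, and genes at 0 are bounded by the depth.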

Other observations

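Among 24 tested transcription and splicing factors of epithelial cells, 8 were higher and 10 lower. The median change was -0.12 on the log2 scale and 0.09 under total counts, where 11 were higher and 6 lower. The splicing factors Esrp1 and Esrp2, which set epithelial isoforms, both fell, Esrp1 from 4016 ± 234 to 3065 ± 124 and Esrp2 from 2027 ± 29.8 to 741 ± 13.9 normalised counts (log2 fold change -0.39, SE 0.05, and log2 fold change -1.45, SE 0.054). Of the grainyhead factors, which drive junction genes in many epithelia, Grhl1 rose from 36.9 ± 11.8 to 197 ± 27.3 (log2 fold change 2.42, SE 0.25, edgeR adjusted p = 6.12e-07), and the more abundant Grhl2 went from 1838 ± 81.3 to 1642 ± 30.4 (log2 fold change -0.16, SE 0.051, edgeR adjusted p = 0.00978). Under total counts Grhl2 had 0.0517 and did not pass, so no direction can be given for it. Klf5 rose from 2419 ± 83.4 to 3993 ± 137 and Klf4 from 243 ± 8.26 to 832 ± 29.1, both factors of barrier epithelium (log2 fold change 0.72, SE 0.046, and log2 fold change 1.78, SE 0.088). Zeb2, a repressor of epithelial genes, rose from 889.6 ± 85.2 to 2931 ± 22.1 (log2 fold change 1.72, SE 0.063, edgeR adjusted p = 9.26e-12), and its relative Zeb1, under 60 counts in every library, was higher too (log2 fold change 2.83, SE 0.91, edgeR adjusted p = 0.0108). With 1 library left out, the Zeb1 log2 fold change ran from 2.06 without P3FI-90 replicate 1, where it did not pass, to 7.85 without DMSO replicate 3. It was 0.67 by limma on log2(CPM + 1), and DESeq2 gave an adjusted p of 0.148. Gata3, a luminal factor, was 2596 ± 76.5 and 2780 ± 91.9 and did not pass (edgeR adjusted p = 0.0691), but passed in 5 alternatives.

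Of 18 tested partners and regulators of keratins and of surface proteins of epithelium, 6 were higher and 10 lower, the median change being -0.28 on the log2 scale. Under total counts the median was -0.07, with 7 higher and 9 lower. Sqstm1 (p62), the autophagy receptor that gathers with keratin in inclusion bodies, rose from 11417 ± 182 to 32765 ± 739.9 (log2 fold change 1.52, SE 0.03, edgeR adjusted p = 2.74e-14). Epcam, which binds claudins at the lateral membrane, fell from 10324 ± 549.6 to 4142 ± 49.4 (log2 fold change -1.32, SE 0.041). Sfn (14-3-3 sigma), which binds keratin 18, fell from 2980.2 ± 31.1 to 1013 ± 90.02 (log2 fold change -1.56, SE 0.062), and Krtcap3, a keratinocyte-associated protein, from 1544 ± 86.9 to 379 ± 23.1 (log2 fold change -2.03, SE 0.075). St14 (matriptase), the surface protease, rose from 6857 ± 149 to 9353 ± 302 (log2 fold change 0.45, SE 0.036) and its partner Prss8 (prostasin) fell from 587 ± 16.9 to 219 ± 22.8 (log2 fold change -1.42, SE 0.11). Genes named here beyond the naming rule, such as Esrp2, Klf4, Zeb2, Epcam and Prss8, were chosen after their values were seen.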
